A study of Homo sapiens with 6 samples.

Results

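AP-1 is a family of transcription factors that bind DNA as pairs of proteins with a basic region and a leucine zipper. The members described here are 9 genes: FOS, FOSB, FOSL1 and FOSL2, which encode the FOS proteins, JUN, JUNB and JUND, which encode the JUN proteins, and BATF and BATF3, which encode short relatives that lack a transactivation domain of their own. They were chosen by symbol, and every probe set that the array annotation pairs with a member symbol and with no other gene was taken, which gave 19 of 54675 probe sets in the table and 9 of 19775 genes. The family was proposed because FOS, FOSB and JUN stood among the largest differences of the only contrast in the study. The members' differences are therefore given as a description, with no test.

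The study measured RNA of MM1.S, an established line of human multiple myeloma, a cancer of plasma cells, on 6 Affymetrix arrays. All cells had been infected with a lentivirus, sorted for GFP and cultured in triplicate. The 3 control arrays came from cells with the pKLO GFP control vector, described in the protocol as a control shRNA, and the 3 knockdown arrays from cells with the pKLO beta-catenin shRNA. Control cultures thus shared the infection, the GFP sort and the culture with the knockdown cultures. Sorted cells were grown in triplicate and separate infections are not described, so the spread given here is that between cultures. Label text on embryos, at odds with a cell line, was not used.

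FOS proteins do not pair stably with each other and bind DNA as partners of a JUN protein, whereas JUN proteins can also pair with themselves. FOS, FOSB, JUN and JUNB are immediate early genes, transcribed soon after a stimulus without new protein synthesis, and the mRNAs of FOS and JUN carry AU-rich elements that make them short-lived. JUN protein is activated by JNK, a MAP kinase. BATF pairs with JUN proteins and acts with IRF4 in lymphoid cells. In the series' context JUN is also known as a target of beta-catenin.

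Promoter windows were available in a RefSeq table (GRCh38.p14) for 7 of the 9 members, all but FOSL1 and BATF3. Each window runs from 250 bases before the annotated start of the gene to 50 bases after it. The windows of the 4 genes with the largest differences between groups, FOS, FOSB, JUN and JUND, are shown with that of FOSL2, which shares a motif with them and whose values lay close together in both groups. Capitals mark matches to the CRE core TGACGT, the AP-1 site TGANTCA and the JUN-type site TGACATCA on either strand, and to the TATA box TATAAA on the gene's own strand. The window of FOS is chr14:75278578-75278877 on the plus strand, that of FOSB chr19:45467746-45468045 on the plus strand, that of JUN chr1:58783998-58784297 on the minus strand, that of JUND chr19:18281573-18281872 on the minus strand and that of FOSL2 chr2:28392608-28392907 on the plus strand. All are written 5′ to 3′ in the direction of the gene.
FOS: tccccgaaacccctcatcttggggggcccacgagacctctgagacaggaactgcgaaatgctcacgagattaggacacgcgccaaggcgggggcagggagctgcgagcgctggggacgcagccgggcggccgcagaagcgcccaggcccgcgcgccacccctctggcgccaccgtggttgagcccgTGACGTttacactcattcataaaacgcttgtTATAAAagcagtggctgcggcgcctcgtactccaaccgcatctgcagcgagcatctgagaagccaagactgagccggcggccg
FOSB: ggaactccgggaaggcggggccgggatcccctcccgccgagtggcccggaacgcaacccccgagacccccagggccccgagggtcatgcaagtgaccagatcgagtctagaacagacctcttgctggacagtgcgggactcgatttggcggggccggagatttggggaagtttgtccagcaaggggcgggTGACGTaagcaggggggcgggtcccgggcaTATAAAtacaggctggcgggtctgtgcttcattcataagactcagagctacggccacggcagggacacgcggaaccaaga
JUN: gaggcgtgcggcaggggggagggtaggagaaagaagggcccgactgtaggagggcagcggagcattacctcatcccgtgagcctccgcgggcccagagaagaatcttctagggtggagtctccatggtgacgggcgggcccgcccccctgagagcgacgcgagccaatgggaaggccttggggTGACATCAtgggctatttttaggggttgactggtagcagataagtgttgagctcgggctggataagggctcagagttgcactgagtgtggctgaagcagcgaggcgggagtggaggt
JUND: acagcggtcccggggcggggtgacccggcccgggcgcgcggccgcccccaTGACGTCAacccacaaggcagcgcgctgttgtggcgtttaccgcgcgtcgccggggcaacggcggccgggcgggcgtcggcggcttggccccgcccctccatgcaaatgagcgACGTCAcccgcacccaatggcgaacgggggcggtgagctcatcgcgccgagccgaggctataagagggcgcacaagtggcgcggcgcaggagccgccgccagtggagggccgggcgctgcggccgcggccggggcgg
FOSL2: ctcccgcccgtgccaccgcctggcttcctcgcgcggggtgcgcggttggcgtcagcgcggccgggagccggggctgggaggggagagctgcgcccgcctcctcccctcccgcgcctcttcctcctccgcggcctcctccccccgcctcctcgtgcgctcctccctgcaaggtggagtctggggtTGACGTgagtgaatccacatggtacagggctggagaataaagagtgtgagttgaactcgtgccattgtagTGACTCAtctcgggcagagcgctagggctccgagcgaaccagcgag

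The CRE is the site of CREB and ATF proteins. Its core began 64 bases before the start in FOS, 60 bases before it in FOSB and 66 bases before it in FOSL2, and JUND held it around 2 places, 200 and 87 bases before the start. The match 200 bases before the JUND start was a full palindromic CRE, TGACGTCA, whose strands both hold the core. The CRE core is held by 7.98% of the 35116 promoters of the same length in the table and the full CRE by 1.85%. JUN held in its place the JUN-type site TGACATCA, known from the JUN promoter as a site of JUN and ATF2 pairs, 67 bases before the start. This site is in 2.61% of all windows. FOSL2 was the only member window with a match to the AP-1 site TGANTCA, at base 5 after the start, against 7.71% of all windows. A TATA box stood 33 bases before the start in FOS, 30 in FOSB and 31 in JUNB, against 7.33% of all windows.

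Other letters searched were the CCAAT box CCAAT (in 3 member windows, JUN, JUNB and JUND, and in 34.6% of all), the ETS core CCGGAA (in FOSB, and in 17.2% of all), the GC box GGGCGG (in 6 member windows, all but that of JUNB, and in 45% of all) and the CArG box, the site of SRF, which no member window held and 1.29% of all did. The known CArG box of FOS lies farther upstream than these windows reach. BATF stood apart in base composition: its window was 46% G and C with 7 CpG, where the other 6 lay between 62% and 77%, and the median over all windows was 58.7%. The matches are descriptions of letters in these windows. FOSL2 held the CRE core, and its RNA differed by 0.11 between the groups on its brightest probe set. JUN held the JUN-type site instead and differed by 3.7. Any link between the matches and the differences was not tested.

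**Figure D1:**
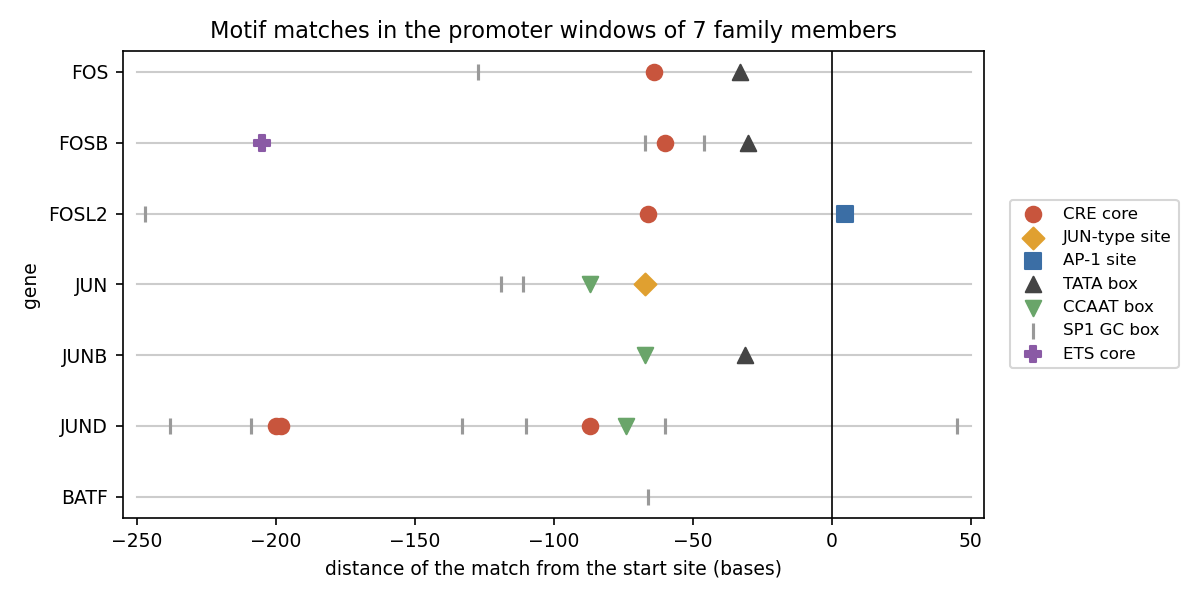
Matches to 7 motifs in the promoter windows of the 7 family members with an entry, 1 line per gene, against the distance from the annotated start in bases. The CRE core lies 60 to 66 bases before the start in FOS, FOSB and FOSL2, the JUN-type site 67 bases before it in JUN, and JUND has the CRE core farther upstream.

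The deposited values are log2 expression values with a floor at 4, which fits the form log2(signal + 16). Values within 0.01 of 4 are called at the floor. A difference is the knockdown mean minus the control mean on this scale, and because of the offset it understates the change of dim probe sets. A probe set counted as tested if its mean over the 6 arrays was at or above 5.49, the median over all probe sets. Of the 19 member probe sets, 12 lay above this filter and 7 below. FOS, FOSB and 3 of the 4 probe sets of JUN were above it through the knockdown arrays alone, since none of their controls reached 5.49. Counts over the members above the filter are therefore no support for a difference. Levels of different genes are not compared with each other. The arrays read RNA of whole cultures, in which fewer cells with a transcript and less of it per cell cannot be told apart.

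In the FOS branch, FOS and FOSB were near or at the floor in the control cultures and bright in the knockdown cultures. FOS, the classical partner of JUN, read 4, 4 and 4 in the 3 control arrays and 9.26, 9.32 and 9.24 in the 3 knockdown arrays. All controls were at the floor, and the knockdown arrays lay within 0.08 of each other. The difference was 5.27 (SE 0.103), which corresponds to 38.7-fold on the offset scale. With all controls at the floor, the size of this fold depends on the offset. The difference ranked 1 among the 12939 genes tested, and read as log2(signal + 64) or log2(signal + 4) it was 3.38 or 7.24.

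FOSB, a FOS protein that also occurs as a shortened form, read 4.6, 4 and 4.78 in control and 8.24, 8.34 and 8.13 in knockdown arrays. One control was at the floor and the groups did not overlap. Control cultures averaged 4.46 ± 0.41 (SD, n = 3), and knockdown cultures averaged 8.24 ± 0.11 (SD, n = 3). The difference of 3.78 (SE 0.148) corresponds to 13.7-fold on the offset scale, ranked 6 among the genes tested and was 2.31 with log2(signal + 64).

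FOSL1 and FOSL2, which encode FRA1 and FRA2, did not share this pattern. FOSL1 read 5.21, 5.19 and 4.93 in control and 5.22, 5.15 and 4.92 in knockdown arrays. All 6 values were below the filter level and the groups overlapped throughout, with a difference of −0.01 (SE 0.129). FOSL1 was too dim to be tested, and these values do not show that it stayed the same.

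FOSL2 had 5 probe sets, of which only the brightest lay above the filter. It read 6.13, 6.13 and 6.18 in control and 6.27, 6.20 and 6.31 in knockdown arrays. The knockdown arrays were all above the controls, yet the difference was 0.11 (SE 0.106), or 1.08-fold. The 4 dimmer probe sets gave differences of 0.06, 0.11, −0.23 and 0.51. The last of them, 228188_at, read 4, 4.15 and 4.36 in control and 4.82, 4.41 and 4.81 in knockdown arrays, so its groups were apart but close to the floor. The 5 probe sets did not point in 1 direction.

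In the JUN branch all genes had at least 1 probe set with higher values in the knockdown, but by very different amounts. JUN, a strong activator, was read by 4 probe sets. The brightest, 201464_x_at, read 6.14, 6.14 and 6.52 in control and 9.99, 9.99 and 9.91 in knockdown arrays. Control arrays thus spread over 0.38 and knockdown arrays over 0.08, and more than 3 log2 units lay between the groups. The difference was 3.70 (SE 0.104), or 13.0-fold, and ranked 7 among the genes tested.

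The other JUN probe sets were dimmer in the controls and agreed in direction. Probe set 201465_s_at read 4.06, 4.51 and 4.91 in control and 7.68, 7.84 and 7.67 in knockdown arrays, a difference of 3.24 (SE 0.151). Probe set 213281_at read 4.62, 5.02 and 4.84 in control and 7.55, 7.45 and 7.50 in knockdown arrays, a difference of 2.67 (SE 0.118). Probe set 201466_s_at read 4.73, 4.86 and 5.28 in control and 7.22, 7.29 and 7.10 in knockdown arrays, a difference of 2.25 (SE 0.131). All 4 probe sets kept the groups apart, and in each the knockdown arrays spread less than the controls. On the deposited scale the fold was 4.76 to 13.0, but no control of the 3 dimmer probe sets reached the filter level, and the offset compresses their differences. With log2(signal + 64) these 3 gave 1.88, 1.58 and 1.3, beside 3.06 for the brightest, and with log2(signal + 4) they gave 4.37, 3.38 and 2.85, beside 3.93. The order of 201465_s_at and the brightest probe set thus turned with the offset.

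JUNB, a JUN protein that often weakens the effect of JUN, differed far less. Its single probe set read 6.57, 6.37 and 6.73 in control and 7.03, 7.02 and 7.02 in knockdown arrays. The 3 knockdown arrays lay within 0.02 of each other and above every control. The difference was 0.47 (SE 0.111), or 1.38-fold, with rank 1617 among the genes tested.

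JUND is the JUN protein usually present in resting cells. Its brightest probe set, 203752_s_at, read 8.89, 8.84 and 8.92 in control and 11.11, 11.10 and 11.05 in knockdown arrays. Both groups spread over less than 0.1, and the difference of 2.20 (SE 0.0644), or 4.61-fold, ranked 32 among the genes tested. The mean over the 4 JUND probe sets was 1.31. JUND was far above the floor in the control arrays, unlike FOS and FOSB.

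A further pair of JUND probe sets had the same direction. Probe set 203751_x_at read 5.85, 5.91 and 6.02 in control and 7.41, 7.72 and 7.53 in knockdown arrays, a difference of 1.63 (SE 0.110), and 214326_x_at read 5.61, 6.00 and 6.15 against 7.45, 7.64 and 7.44, a difference of 1.59 (SE 0.126). The fourth, 229117_s_at, did not: it read 5.23, 5.12 and 5.09 in control and 5.10, 4.90 and 4.92 in knockdown arrays. Its groups overlapped, all its values were below the filter level, and the difference was −0.18 (SE 0.118). Where in the transcript these probe sets lie was not examined, and the marks _x_ and _s_ in their names denote probes that may also match other transcripts.

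BATF and BATF3 gave overlapping values. BATF read 6.09, 5.95 and 6.31 in control and 6.10, 5.92 and 6.05 in knockdown arrays, a difference of −0.09 (SE 0.118). BATF3 read 5.39, 5.21 and 5.24 in control and 5.22, 5.26 and 5.41 in knockdown arrays, a difference of 0.02 (SE 0.116), with every array below the filter level. These members therefore showed no separation between the groups on these arrays.

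**Figure D2:**
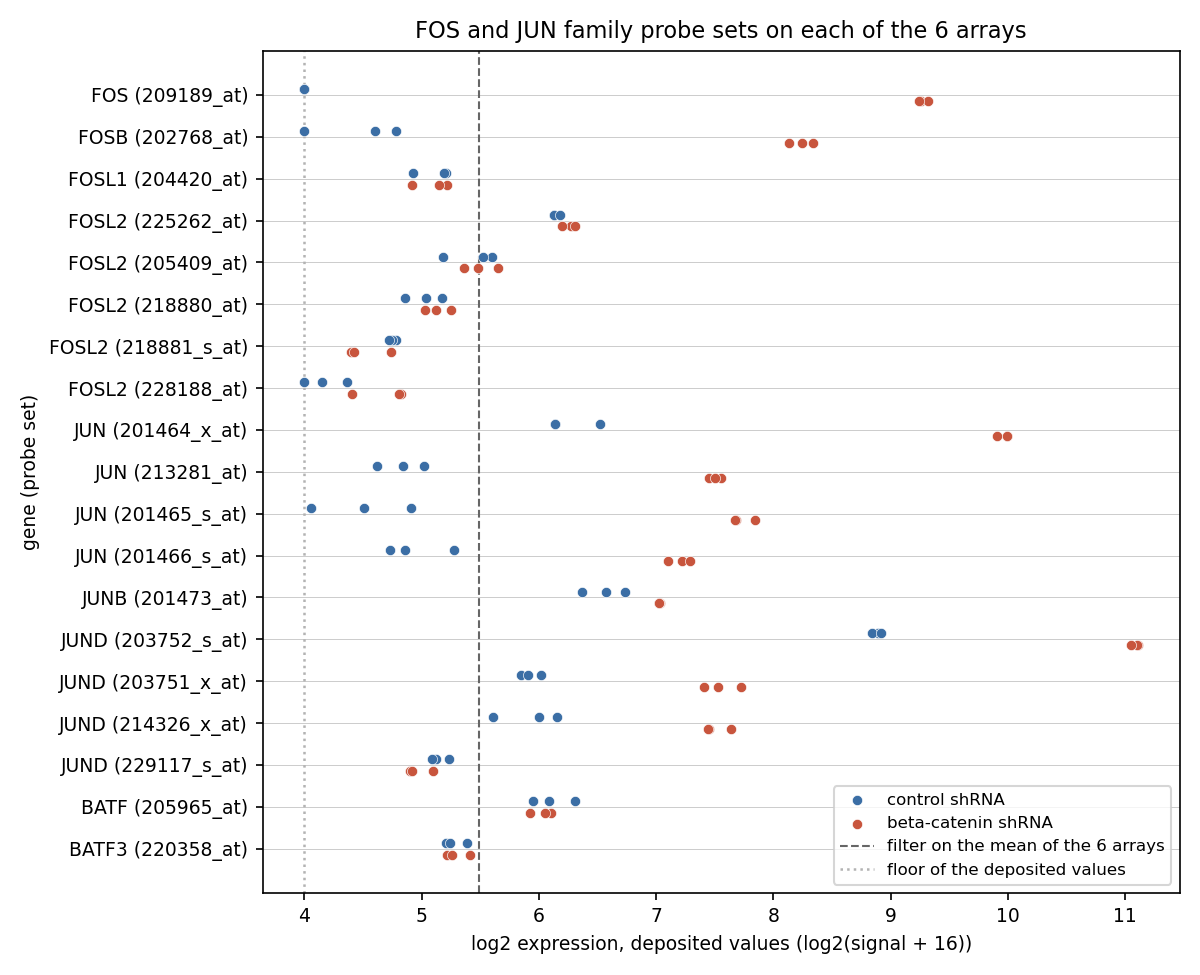
Deposited log2 expression of each of the 19 member probe sets on the 6 arrays, with control arrays in blue and knockdown arrays in red; the dashed line is the filter at 5.49 and the dotted line the floor at 4. FOS, FOSB, the 4 JUN probe sets and 3 of the 4 JUND probe sets show the groups far apart, JUNB shows them apart by less, and FOSL1, BATF and BATF3 overlap.

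The difference between the cultures was broad, and the members have to be read against it. Across all 54613 probe sets that are not array controls, the groups did not overlap for 37.2%, and for 22.0% the knockdown was the higher group. Among the 19 member probe sets, 12 were higher with no overlap, 0 were lower with no overlap and 7 overlapped. With limma and Benjamini-Hochberg adjustment over the 27307 probe sets above the filter, 43.9% were called, 24.5% higher and 19.5% lower. Of the 12 member probe sets above the filter, 10 were called higher, 0 lower and 2 were not called, those of FOSL2 and BATF. BATF was the only one of the 12 with a lower mean in the knockdown. Read by the brightest probe set, 5 of the 7 genes above the filter were called higher, beside 25.3% of all genes tested. The median difference of the 12 probe sets was 2.22, beside 0.06 over all probe sets above the filter. Because this contrast was the one that singled the family out, these counts describe the members and nothing is read from them.

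**Figure D3:**
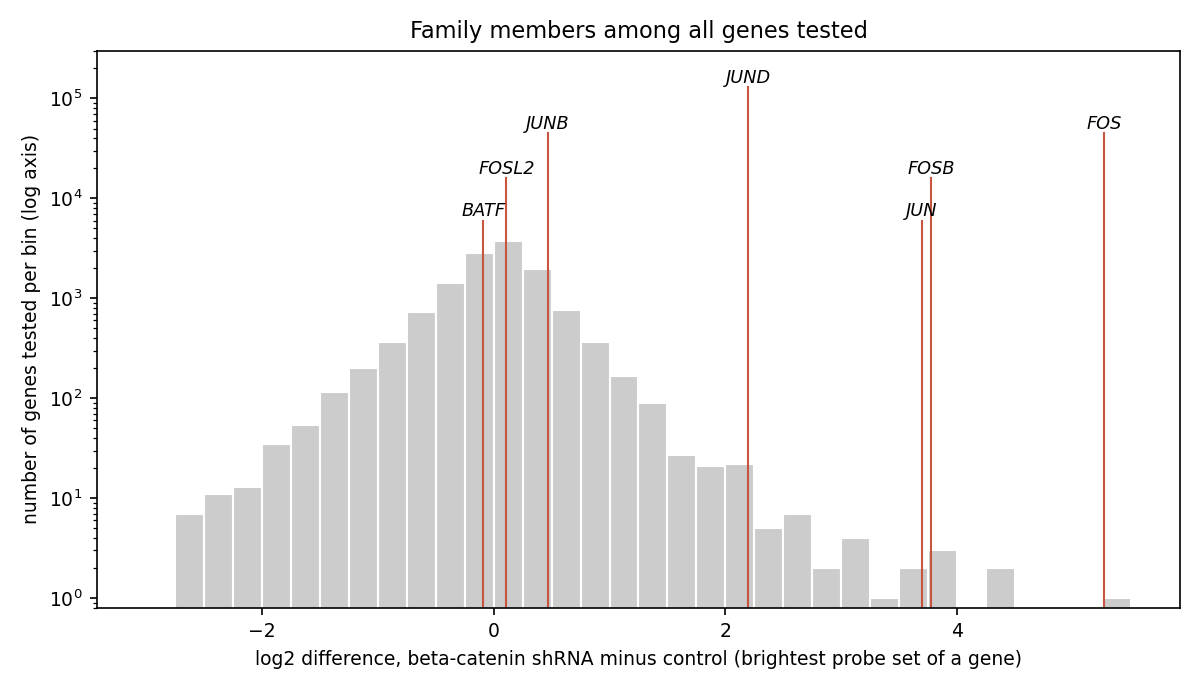
Number of genes per 0.25-wide bin of the log2 difference between beta-catenin shRNA and control, on a log axis, for the 12939 genes tested, with red lines at the 7 family members above the filter. FOS lies alone at the right end at 5.27, FOSB and JUN lie near 3.7, JUND at 2.20, and JUNB, FOSL2 and BATF lie within the bulk of genes.

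The targeted transcript and the array quality bear on these values as follows. CTNNB1, the gene of beta-catenin, was lower by 1.33 (2.51-fold; limma, adjusted p = 5.91e-10 over probe sets) on the brightest of its 3 probe sets, higher by 0.33 on the second (limma, adjusted p = 0.019) and differed by −0.07 on the third, which was not called. The mean over the 3 probe sets was −0.36. All 9 plasma cell markers listed were above the filter level on all 6 arrays. Their mean level was 9.28 to 9.39 in control and 9.48 to 9.56 in knockdown arrays, higher in every knockdown array; limma called 4 of them higher, CD38 among them, and 3 lower, SDC1 and TNFRSF17 among them. The part of this shift in the members' values was not tested. The mean levels of the B cell, T and NK cell, myeloid, fibroblast and erythroid marker lists overlapped between the groups. The filter level is a median and no test of presence, and 1 of 4, 1 of 5, 2 of 5, 4 of 5 and 1 of 3 of those markers also lay above it on every array. The mean of 3 ribosomal RNA control probe sets was 8.58 to 10.15 in control and 10.33 to 11.01 in knockdown arrays, so it was higher in every knockdown array, and its part in the members' values was not tested. The gap between the 3′ and the 5′ probe sets for ACTB, which widens as RNA degrades, was 0.53 to 0.89 in control and 0.54 to 0.64 in knockdown arrays and overlapped.

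The pattern of FOS, at the floor in every control and bright in every knockdown array, was uncommon in the table. This pattern was defined from the values of FOS itself, so the counts that follow are a description and no support. Of 54613 probe sets, 102 were at the floor in all 3 controls, and 2 of these were above 5.49 in all 3 knockdown arrays. One was FOS and the other a second probe set of DUSP1, 201044_x_at, which was chosen after its values were seen and read 4 in each control and 7.70, 7.91 and 7.78 in the knockdown. In the opposite direction, 79 probe sets were at the floor in all 3 knockdown arrays and 0 of them were above 5.49 in all 3 controls.

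Genes with a profile close to those of FOS and JUN were found by the Euclidean distance between the 6 array values of each gene, less the mean of its controls. Family members and placeholder symbols were left out of this search, so it does not show how near the members lie to each other. For FOS the nearest were CCL4, a chemokine, at a distance of 1.37, DUSP1, a phosphatase of MAP kinases, at 1.40, KLF4, a zinc finger transcription factor, at 2.30, ATF3 at 2.32 and CHAC1, an enzyme that degrades glutathione, at 2.75. For JUN they were CHAC1 at 0.311, ATF3 at 0.478, KLF4 at 0.655, the pseudokinase TRIB1 at 0.775 and ADA2, an adenosine deaminase, at 0.835. With 2 groups of 3 arrays this distance mostly measures how similar the differences are in size: they were 4.48 for CCL4, 4.47 for DUSP1, 3.96 for KLF4, 3.93 for ATF3 and 3.69 for CHAC1. None of these genes came within a distance of 1 of FOS. The controls of CHAC1 read 4.98, 5.23 and 5.25, so CHAC1, like KLF4, was above the filter through the knockdown arrays alone.

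The other genes around AP-1 were taken from lists set by function. In what follows a gene is read by its brightest probe set, p-values are those of limma adjusted over all 12939 genes tested, and each list's share of calls stands beside the 47.3% of all genes called, 25.3% higher and 22.0% lower, with a median difference of 0.05. More genes were called lower than higher in some settings: centring on array medians gave 2765 higher and 3316 lower, quantile normalization 3114 and 3203, cyclic loess 3053 and 3263, and the fit 2948 and 3053 without control replicate 2, against 3273 and 2841 here. No test of a whole list was made. Listed genes without a probe set of their own symbol were not analysed here.

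The leucine zipper partners and relatives of the family were mostly higher. Of 17 tested, 13 were called higher and 1 lower, a share of 82.4%, with a median difference of 1.1. BACH2, 1 of the 13, was above the filter through the knockdown arrays alone, with controls at 4.88, 4.72 and 5.41. ATF3, a stress-induced partner of JUN that can repress transcription, rose by 3.93 (SE 0.0837, adjusted p = 5.16e-25). ATF4, the main factor of the integrated stress response, rose by 1.72 (SE 0.0708, adjusted p = 5.11e-18), CEBPB, a factor of inflammation and differentiation, by 2.23 (SE 0.0931, adjusted p = 6.15e-18) and DDIT3, the stress factor CHOP, by 2.55 (SE 0.107, adjusted p = 7.25e-18). The 1 lower gene was ATF7, a close relative of ATF2, with −0.35, which was not called without knockdown replicate 3 (−0.19). ATF2, the classical partner of JUN at CRE-like sites, was just past the threshold at 0.29 (adjusted p = 0.0493) and lost its call in 13 of 17 other settings. JDP2, a repressor of AP-1, was not called (−0.10), and BATF2, the relative of BATF outside the members, was below the filter.

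Genes of the kinases that act on JUN and FOS moved in both directions. Of 27 genes of the JNK and p38 cascades, 9 were called higher and 4 lower (median 0.09), a share of 48.1%. The JNK genes MAPK8 and MAPK9 were not called, with differences of 0.06 and 0.21 (adjusted p = 0.671 and 0.119). GADD45A and GADD45B, which bind and activate the upstream kinase MAP3K4, rose by 1.25 and 1.14 (SE 0.0944 and 0.0896), although GADD45B gave 0.27 and was not called when probe sets without _x_ or _s_ were preferred. MAP3K1 and MAP3K12, kinases at the head of the JNK cascade, rose by 0.84 and 0.60, and MAP3K1 gave 0.45 as a probe set mean. The 4 lower genes were MAPK13, MAP3K3, MAP3K4 and MAPKAPK3, between −0.48 and −0.37; MAP3K4 gave −0.27 with a larger offset.

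In the RAS and ERK cascade, which reaches FOS through ELK1 and SRF, 7 of 15 genes were called higher and 3 lower (median 0.24). This was a share of calls of 66.7%. MAP2K2 and MAP2K1, the kinases MEK2 and MEK1, rose by 0.78 (adjusted p = 1.47e-08) and 0.45 (adjusted p = 1.78e-04). RPS6KA2, a kinase downstream of ERK, rose by 0.63 and the RAS exchange factor SOS2 by 0.68. MAP2K2 and SOS2 gave 0.44 and 0.35 with the mean over their probe sets. HRAS, ARAF and GRB2 were lower by −0.49, −0.35 and −0.28; ARAF lost its call without control replicate 1 and GRB2 without control replicate 3 or knockdown replicate 1. MAPK3, the gene of ERK1, was not called (0.22, adjusted p = 0.115).

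The factors that bind the FOS and JUN promoters also moved in both directions. Of 16 tested, 5 were called higher and 2 lower (median 0.12, share of calls 43.8%), or 4 and 3 after centring on array medians. SRF, which binds the CArG box of FOS, was lower by −0.32 (adjusted p = 0.0287), a call that was lost without control replicate 2 or knockdown replicate 2, with no filter and as a probe set mean. ELK3, an ETS partner of SRF that represses FOS, fell by 1.18 (SE 0.112, adjusted p = 4.54e-10), or −0.49 with the mean over its probe sets. CREB1, which binds the CRE, was not called (−0.12, adjusted p = 0.396). CREM, a relative of CREB1 with repressor forms, rose by 0.91 on its brightest probe set (adjusted p = 1.28e-07), while the rule that prefers probe sets without _x_ or _s_ gave −0.33. MEF2C and MEF2D, which bind an AT-rich site of the JUN promoter, rose by 0.49 and 0.53, with MEF2D at 0.16 and not called as a probe set mean.

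Among feedback regulators, 5 of 7 MAP kinase phosphatases were called higher and 1, DUSP7, lower by −0.74 (median 0.70, share of calls 85.7%). DUSP1 rose by 4.47 (SE 0.0861, adjusted p = 1.64e-25), DUSP6 by 2.05 (SE 0.0998), DUSP5 by 1.51 (SE 0.0816) and DUSP4 by 0.70 (SE 0.103). DUSP6 and DUSP5 act on ERK in cytoplasm and nucleus, DUSP1 and DUSP4 on several MAP kinases in the nucleus. The mean over its 3 probe sets gave 2.85 for DUSP1. DUSP4 gave 1.14 when probe sets without _x_ or _s_ were preferred, and DUSP7 −0.42 with log2(signal + 64).

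Genes that decide the life of AU-rich mRNAs, a class that includes those of FOS and JUN, moved in both directions. Of 22 tested, 6 were called higher and 9 lower (median −0.06, share of calls 68.2%). ZFP36 and ZFP36L1, which bind AU-rich elements and recruit decay enzymes, rose by 1.01 (SE 0.105, adjusted p = 2.92e-09) and 2.09 (SE 0.109, adjusted p = 1.07e-15; 0.90 with the mean over its probe sets). ELAVL1, the stabilising protein HuR, fell by 1.06 (SE 0.0840, adjusted p = 1.10e-11; −0.42 with that mean). HNRNPD, the decay factor AUF1, was lower by −1.36 (SE 0.0722, adjusted p = 1.47e-15), with 5 of its 6 probe sets above the filter called lower and 1 higher; preferring probe sets without _x_ or _s_ turned it to 0.95.

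Genes for the turnover and cofactors of JUN and FOS proteins had 3 of 20 called higher and 5 lower (median −0.02, share of calls 40%). After centring on array medians, 3 were called higher and 8 lower. The ubiquitin ligase genes COP1 and FBXW7, which mark JUN for degradation, were not called, with −0.22 and 0.16 (adjusted p = 0.0852 and 0.220). RNF187, a ligase that coactivates JUN, rose by 0.97 (SE 0.0720, adjusted p = 2.92e-12), or 0.29 with the mean over its probe sets. APEX1, which keeps AP-1 reduced and able to bind DNA, fell by 0.69 (SE 0.0949, adjusted p = 4.88e-07). DDB1, a subunit of the ligase complex that holds COP1, fell by 0.64, and SKP1, a subunit of the FBXW7 complex, gave −0.46 on its brightest probe set and 0.82 when probe sets without _x_ or _s_ were preferred.

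Genes reported as AP-1 targets in other cell types were called at a share near that of all genes. Of 24 with a probe set, 16 were tested, of which 5 were called higher and 3 lower (50%, median 0.05), or 4 and 4 after centring, quantile normalization or cyclic loess. VEGFA, an angiogenic growth factor, rose by 1.52 (SE 0.106, adjusted p = 7.05e-13) and CD44, an adhesion receptor, by 0.75 (SE 0.0707, adjusted p = 3.95e-10). GJA1, a gap junction protein, was lower by −1 (SE 0.0947, adjusted p = 4.18e-10) and EZR, the membrane linker ezrin, fell by 0.61 (SE 0.122, adjusted p = 1.24e-04). The classical collagenase target MMP1 and the cytokine IL6 were below the filter, with differences of −0.20 and 0.05. CCND1 and VIM, tested, were not called (0.05 and −0.06).

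Other immediate early genes that were tested were mostly higher: 10 of 14 were called higher and 0 lower by limma (median 1.32, share of calls 71.4%). All 14 differences were above 0 on the deposited scale, although that of CCN1 was below the median of 0.05 over all genes tested. The 4 genes below the filter went both ways: NR4A2 and NR4A3 differed by 0.84 and 0.40, EGR3 and CCN2 by −0.05 and −0.06. KLF6, TRIB1, KLF4 and BTG1, of which BTG1 restrains proliferation, rose by 3.04, 3.28, 3.96 and 1.81. EGR1, often induced together with FOS through SRF, rose by 1.36 (SE 0.124, adjusted p = 2.16e-10). IER2, IER3, NR4A1 and CCN1, also immediate early genes, were not called, with differences of 0.27, 0.06, 0.22 and 0.02. BTG1 gave 0.43 when probe sets without _x_ or _s_ were preferred and TRIB1 gave 1.97 with the mean over its probe sets. KLF4 gave 2.58 with log2(signal + 64). Its controls read 4.89, 4.38 and 4.67, so KLF4 was above the filter through the knockdown arrays alone.

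Of the B-lineage partners of BATF, 4 were tested, of which 2 were called higher and 1 lower (75%, median 0.31). IRF4, with which BATF binds DNA, was lower by −0.23 (SE 0.0684, adjusted p = 0.00611), or −0.03 with no call under the mean over its probe sets, and was not called without the intensity trend. PRDM1, the plasma cell factor BLIMP1, rose by 0.51 (SE 0.0757, adjusted p = 1.63e-06). SPIB was higher by 0.40 (adjusted p = 0.0136), a call lost without control replicate 1 or 2 or knockdown replicate 1, and IRF8 was not called (0.22). SPI1, the factor PU.1, was below the filter and not tested, with a mean of 5.15 in control and 5.82 in knockdown cultures.

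**Figure D4:**
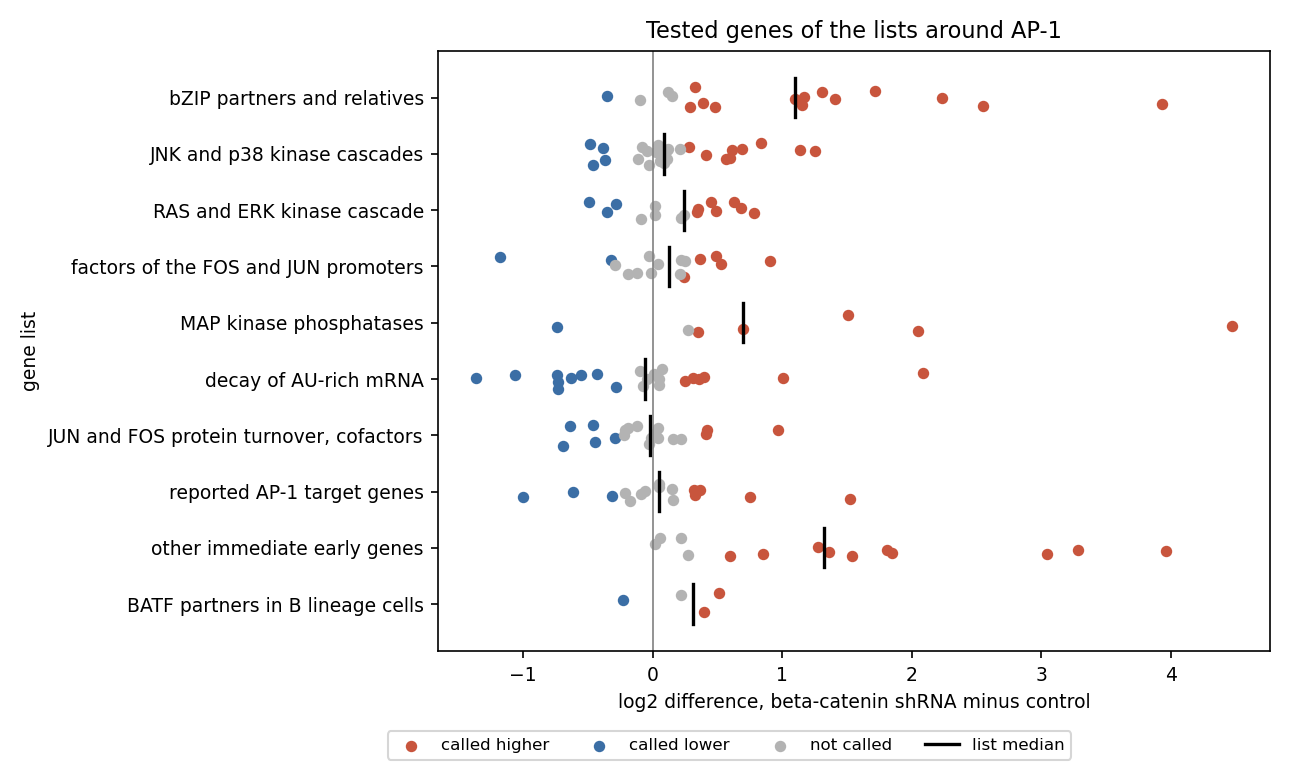
Log2 difference between beta-catenin shRNA and control for each tested gene of 10 lists around AP-1, with genes called higher in red, called lower in blue and not called in grey, and the list median as a black bar. The lists of leucine zipper partners, MAP kinase phosphatases and other immediate early genes have medians of 1.1, 0.70 and 1.32, while the kinase, promoter factor and target gene lists have medians between 0.05 and 0.24.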

How the data were processed

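RNA of 6 MM1.S cultures, 3 with a control vector and 3 with a beta-catenin shRNA, was measured on Affymetrix arrays; group and replicate number were read from the sample titles. Per probe set, the authors deposited log2 values with a floor at 4; the form log2(signal + 16) was read from the values. MAS5 and PLIER are named in the submitters' processing notes; which made the values, and how arrays were scaled, is not stated there. Array medians were 5.44 to 5.54 and values were used as deposited.

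Of 54675 probe sets, 62 array controls were left out of tests; 41091 had 1 gene symbol, 1801 several and 11721 none here, and 41037 were matched by gene ID to a RefSeq table. A gene was read by its brightest probe set. limma 3.58.1 in R 4.3.3 (lmFit, eBayes with trend, two-sided, Benjamini-Hochberg adjustment, threshold 0.05) compared the groups for 12939 genes and, separately, 27307 probe sets at or above 5.49. The procedure was tested on simulated data in which far fewer probe sets changed than were called here. SEs are from this fit, and those of probe sets below the filter from a fit of all probe sets. P-values set the group difference against the spread between cultures, with variances moderated across genes. They do not cover variation between infections or between shRNAs. The number of arrays limits the precision.

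Named genes were all members, CTNNB1 and up to 4 called genes per list by adjusted p. Others were the 5 profiles nearest to FOS and to JUN, with members and placeholder symbols left out. Further list genes, named for their role or as the few of a count, were chosen after their values were seen. The members, lists and rules were chosen with earlier results of these data known. Alternatives were a replicate block, other scalings, filters, offsets, variance models and probe set rules, and leaving out each array.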

Additional observations from a re-analysis of the deposited data

How the results depend on the processing

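Member probe sets called numbered 10 of 12, and 10 in every setting without one array, with quantile normalization, centring, cyclic loess, other offsets, no intensity trend and the replicate block; the count was 11 with no filter and 6 with a filter at the 75th percentile of 6.41, which tests fewer probe sets. Genes called numbered 6114, 5305 to 6001 when 1 array was left out, and 5494 with the replicate number as a block. Same-numbered arrays did not deviate together (r = −0.09, −0.26 and −0.30 across genes). With 3 arrays per group, each centred on its group mean, this cannot tell whether arrays of the same number shared any handling. Probe sets called numbered 10183 to 11579 without 1 array. The number of genes called in each pathway list stayed within a factor of 1.5 under each alternative run, but some lists reached that limit. The turnover and cofactor list went from 8 to 12 with quantile normalization and cyclic loess. The phosphatases went from 6 to 4 with the 75th percentile filter, and the B-lineage factors listed with BATF from 3 to 2 in several settings. No called member changed sign under any alternative. Sizes did move: with log2(signal + 64) and log2(signal + 4), FOS differed by 3.38 and 7.24, FOSB by 2.31 and 4.99 and brightest JUN by 3.06 and 3.93. The probe set rule moved sizes as well: with the mean over probe sets JUN gave 2.97 and JUND 1.31, while JUN gave 2.67 where sets lacking _x_ and _s_ were preferred. Signal near the floor limits what can be said of FOSL1, BATF3 and the dim FOSL2 probe sets.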

Other observations

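Several genes of the lists around AP-1 had probe sets above the filter that were called in opposite directions, beside HNRNPD and CREM named above. Of 4 probe sets of SKP1, a subunit of a ubiquitin ligase, 2 were called higher and 2 lower. EXOSC3, a subunit of the RNA exosome, rose by 0.40 on its brightest probe set (adjusted p = 0.00234, limma), while 4 of its 5 probe sets above the filter were called lower and the mean over its 6 probe sets was −0.58. MAP3K20, a stress kinase, had 1 probe set called higher and 3 lower of 5 above the filter. These genes were chosen after their values were seen. MAP3K8, a kinase upstream of both ERK and JNK, was below the filter and not tested, with a difference of 1.57 from 4.52 ± 0.19 to 6.09 ± 0.12 (SD, n = 3 each).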
